A study of Drosophila melanogaster with 4 samples.

Results

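ATAC-seq was carried out on nuclei of S2 cells, a cultured line derived from Drosophila embryos. The transposase Tn5 inserts sequencing adapters where DNA is accessible, so regions rich in insertions mark open chromatin. The labels describe 2 libraries of cells depleted of the linker histone H1 (knockdown, "KD H1") and 2 control libraries treated against LacZ, a bacterial gene. All 4 libraries come from the same cell line, and no label says whether the libraries of a group came from separate cultures. The peaks described here are the regions of the longer of 2 deposited peak lists (list A, 5145 peaks) that had no counterpart in the shorter list (list B, 4027 peaks), on the euchromatic parts of the autosomal arms 2L, 3L and 3R. They are called list A-only peaks. The labels attach both lists to all 4 libraries and neither list to a group, so nothing below is a difference between H1-depleted and control cells. There is 1 list of each kind and no replicate, and intervals cover counting error over peaks, treated as independent. Some peaks matched each other closely in width and in distance to other peaks, as given below with the flank peaks. If such peaks are not independent, the intervals are too narrow, which was not tested.

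The members were chosen by the deposited positions. A list A peak counted when its midpoint lay on 2L below 21.0 Mb, on 3L below 22.5 Mb or on 3R above 2 Mb (build dm3), and when it overlapped no list B peak by 1 bp or more. This gave 871 of the 2035 list A peaks of these regions, or 42.8% of them, against 33.1% of all 5145 list A peaks (1703 without a counterpart). The other 1164 peaks of the same regions overlapped a list B peak and are called shared. The overlap that made the choice depends on the height and the width of a peak, so the differences between list A-only and shared peaks are descriptions, and no test was made of them. The reverse case was rare, with 15 of the 1227 list B peaks in these regions overlapping no list A peak (1.22%, 95% exact binomial interval 0.686 to 2.01). Both shares depend on the unequal length of the lists. With the whole of list A cut to its 4027 strongest peaks, 449 list A-only peaks remained in these regions, a share of 28.7% (26.4 to 31.0). This cut made the whole lists equally long, not their parts in these regions, so it is not the share at equal length there.

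As background, linker histone H1 binds the nucleosome where DNA enters and leaves it and favours compaction of the chromatin fibre. Euchromatin is the gene-rich, less compact part of the chromosome arms, in contrast to the repeat-rich heterochromatin around the centromeres. Accessible sites in euchromatin are typically promoters and enhancers, where nucleosomes are displaced by regulatory proteins, and the open stretch around them is often bordered by positioned nucleosomes. No annotation of build dm3 was used here, so peaks are given by position and not by gene, and no sequence is shown.

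The list A-only peaks were spread over all 3 arms, with the highest share on 3L. They were 290 of 619 list A peaks on 3L (46.8%, 42.9 to 50.9), 255 of 614 on 2L (41.5%, 37.6 to 45.5) and 326 of 802 on 3R (40.6%, 37.2 to 44.1). The interval of each arm overlaps those of the others, which does not show the shares to be equal, and no test between arms was made. On X, which lies outside the chosen regions, 220 of 525 list A peaks had no counterpart (41.9%, 37.6 to 46.3). In the centromere-proximal remainder of 2L, 3L and 3R the number was 68 of 202 (33.7%, 27.2 to 40.6).

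No list A peak of these regions came close to the overlap limit, as the values below show. For the limits along the arms, only list A peaks without a counterpart are given, so shared peaks may lie nearer. No list A-only peak lay under 101 bp from a shared list A peak, and no shared peak of these regions under 102 bp from another. Such a floor in the spacing of list A is no trait of list A-only peaks, and the gap to list B was in part set in advance. The overlap limit still mattered: with a reciprocal overlap of 50%, list A-only peaks numbered 980 instead of 871. The member nearest to any list B peak lay 109 bp from it, on 3L from 3460285 to 3460384, and had a summit −log10 p of 4.01 and a width of 100 bp. Just outside the rule, the smallest overlap of a shared peak with its best list B partner was 72 bp, on 3R from 25590682 to 25590781, with a summit −log10 p of 4.19 and the same width of 100 bp. The next were overlaps of 74 bp on 3R from 11301875 to 11302316 and of 76 bp on 3L from 607868 to 607945. The median shared peak had 85.8% of its length covered by its best list B partner. Along the arms, the member closest to the 2L limit ran from 20936028 to 20936324, and the nearest list A peak without a counterpart beyond it from 21052009 to 21052228. Their summit −log10 p was 5.43 and 4.58.

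List A-only peaks were low. The height of a peak is given here as the −log10 p at its summit, as the authors deposited it, and it is used to compare peaks within list A alone. The median was 4.20 (4.14 to 4.23) in list A-only peaks and 5.55 (5.45 to 5.67) in shared peaks of the same regions, and the quartiles were 3.95 and 4.58 against 4.80 and 6.74. The lowest list A-only value was 3.55, which was also the lowest in list A, and the highest was 6.39. The sets overlapped over this range, although 366 shared peaks (31.4%) were higher than any list A-only peak. The median list A-only peak stood at percentile 24.8 of all list A peaks by height, and the median shared peak at percentile 66.5.

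The deposited −log10 q is the same p corrected over the genome, and ranks the peaks alike by construction. Its median was 2.02 (1.98 to 2.05) in list A-only peaks and 3.08 (2.999 to 3.18) in shared peaks. Values under 2 were held by 422 list A-only peaks (48.4%, 45.1 to 51.8) and by 91 shared peaks (7.82%, 6.34 to 9.51). Peak strength, the deposited area of a peak under the curve of significance, started at 20.01 in list A. It was under 25 in 85 list A-only peaks (9.76%) and 4 shared peaks (0.344%). Strength under 40 was held by 311 list A-only peaks (35.7%) and 25 shared peaks (2.15%). By either limit, a minority of the list A-only peaks lay near the lower end of the list.

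**Figure D1:**
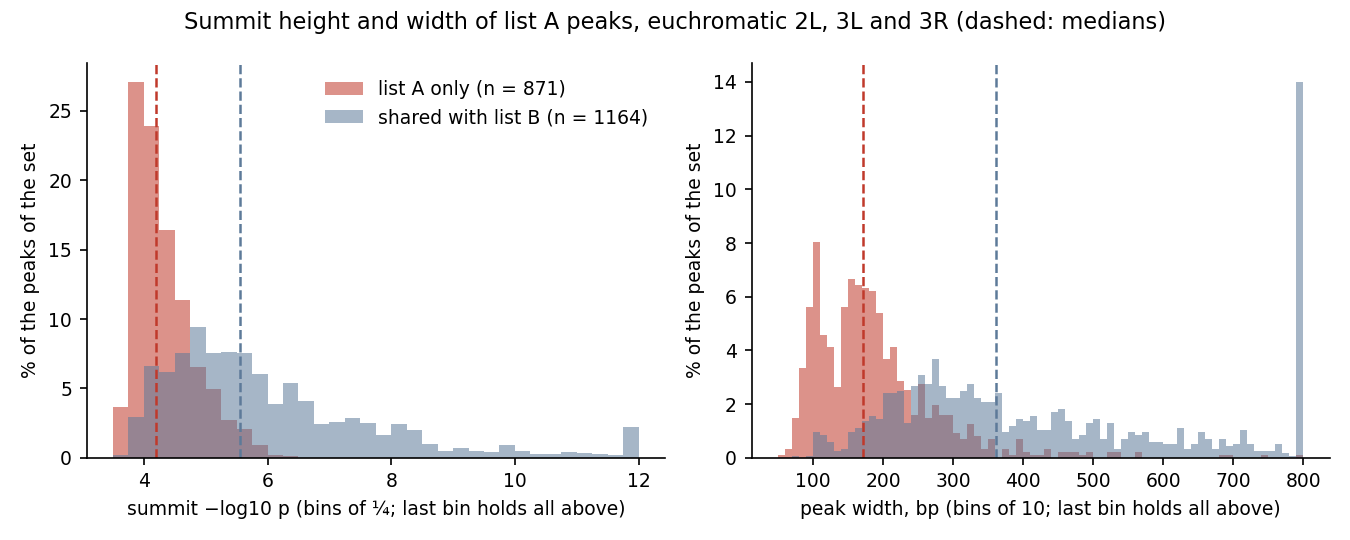
Left, share of list A-only peaks (red, 871) and of shared peaks (blue, 1164) by summit −log10 p in bins of 0.25. Right, the same by width in bins of 10 bp; in both panels the last bin holds all higher values and dashed lines are medians, 4.20 against 5.55 for height and 171 bp against 362 bp for width. List A-only peaks pile up at low heights and at widths under 200 bp.

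The tallest list A-only peaks were still well above the low end of the list. The first was on 3R from 5756824 to 5757563, with a summit −log10 p of 6.39 and a width of 740 bp, and it stood at percentile 77.3 of list A by height. It lay 2200 bp from the nearest shared peak. Next came a 228 bp peak on 3R from 20398414 to 20398641, with 6.10, and a 241 bp peak on 3R from 10564896 to 10565136, with 6.07. These 3 were the list A-only peaks at 6 or above, a height reached by 446 shared peaks (38.3%).

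The remaining 7 of the 10 tallest fell between 5.78 and 5.96 and lay both beside and far from shared peaks. On 2L a narrow peak of 116 bp from 5293412 to 5293527, with 5.96, lay 109 bp from a shared peak. A 319 bp peak on 3R from 14273759 to 14274077 (5.89) and a 270 bp peak on 3L from 14048173 to 14048442 (5.85) also lay beside shared peaks, at 355 bp and 289 bp. By contrast, 2 on 2L were remote: the peak from 4371759 to 4372015 (257 bp wide, 5.90) was 105007 bp from the nearest shared peak, and that from 3534183 to 3534502 (320 bp wide, 5.88) was 97632 bp away. The last 2 were on 3L from 2823447 to 2824136, with 5.82 and 690 bp, and on 3R from 4859405 to 4859641, with 5.78 and 237 bp. Each of these had another list A-only peak close by, at 166 bp and 152 bp.

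List A-only peaks were also narrow. Their median width was 171 bp (166 to 176) with quartiles of 124 and 221.5 bp, against 362 bp (350 to 384) with quartiles of 264 and 579 bp in shared peaks. Widths under 200 bp were found in 583 list A-only peaks (66.9%, 63.7 to 70.1) and in 112 shared peaks (9.62%, 7.99 to 11.5). Widths of 500 bp or more were found in 10 list A-only peaks (1.15%) and in 374 shared peaks (32.1%). List A-only peaks covered 163 kb in all, and shared peaks 647 kb.

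The widest list A-only peak was low and flat. It ran over 896 bp on 3R from 25078250 to 25079145 and had a summit −log10 p of 4.05. The 740 bp and 690 bp peaks named above came next. They were followed by a 683 bp peak on 2L from 2196531 to 2197213, with 5.63, and a 568 bp peak on 3L from 12686120 to 12686687, with 5.47. Both lay far from shared peaks, at 33286 bp and 181945 bp. Among shared peaks the widest reached 7641 bp.

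The widths of list A-only peaks had 2 modes, a feature picked after it was seen. Counted in steps of 10 bp, the number of peaks was 49 at 90 to 99 bp, 70 at 100 to 109 bp and 40 at 110 to 119 bp. It was lowest between the modes at 130 to 139 bp, with 23 peaks, and then 49 at 140 to 149 bp and 54 to 58 in each step from 150 to 189 bp. A width of exactly 100 bp was found in 17 of them. The shared peaks of the same steps were few, with 11 at 100 to 109 bp, 3 at 130 to 139 bp and 11 at 150 to 159 bp.

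Height went with width among the list A-only peaks, although both come from the same peak calls and are not independent measures. The 241 peaks under 130 bp had a median summit −log10 p of 4.02 (3.98 to 4.06), and the 342 peaks of 130 to 199 bp had 4.22 (4.15 to 4.29). The 211 peaks of 200 to 299 bp had 4.34 (4.22 to 4.49), and the 77 peaks of 300 bp or more had 4.67 (4.53 to 4.96). The interval of the narrowest group lay below those of the other 3.

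At like summit height, list A-only peaks remained narrower than shared ones. Between 4 and 4.5 the medians were 160 bp (154 to 168) over 351 list A-only peaks and 265 bp (246 to 273) over 149 shared peaks. Between 4.5 and 5 they were 192.5 bp (182 to 199) over 156 and 308.5 bp (287 to 339) over 198. Between 5 and 6 they were 238 bp (221 to 273) over 93 and 330 bp (316 to 365) over 335. The ratio of list A-only to shared width was 0.604, 0.624 and 0.721 in these bands, and under 4, where shared peaks numbered 36, it was also 0.604. A wider peak has more bases in which to meet a list B peak, and the part of this in the difference was not tested.

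**Figure D2:**
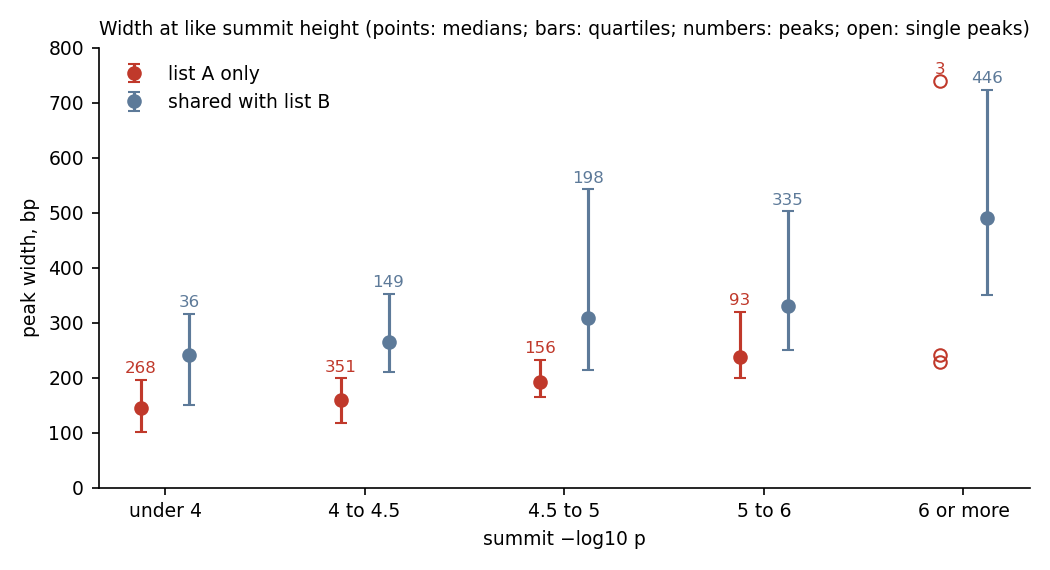
Peak width in bp by band of summit −log10 p, for list A-only peaks (red, left of each pair) and shared peaks (blue). Points are medians, bars run from the lower to the upper quartile, numbers count peaks, and open circles are the 3 list A-only peaks at 6 or above; in each band below 6 the list A-only median lies under the shared one.

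Read the other way, both measures marked the list A peaks that lacked a counterpart. Between 4 and 4.5, no counterpart was found for 144 of 157 peaks under 150 bp (91.7%, 86.3 to 95.5), for 184 of 271 peaks of 150 to 299 bp (67.9%, 62.0 to 73.4) and for 23 of 72 peaks of 300 bp or more (31.9%, 21.4 to 44.0). Between 5 and 6 the shares were 6 of 9 (66.7%, 29.9 to 92.5), 59 of 187 (31.6%, 24.96 to 38.7) and 28 of 232 (12.1%, 8.17 to 17.0). Thus wide peaks of moderate height could lack a counterpart, and low narrow ones could have one.

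The shape of the peaks was alike in 1 respect. The summit lay at 49.4% of the width in the median list A-only peak (quartiles 35.7 and 62.6) and at 49.8% in the median shared peak (36.9 and 62.7).

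Height and width hardly differed between arms. The median summit −log10 p of list A-only peaks was 4.18 (4.11 to 4.26) on 2L, 4.21 (4.12 to 4.27) on 3L and 4.18 (4.10 to 4.28) on 3R. The median widths were 177 bp (166 to 186), 168 bp (158 to 176) and 169 bp (163 to 179). On X, the 220 list A peaks without a counterpart had a median height of 4.27 (4.15 to 4.33) and a median width of 173 bp (156 to 182). These intervals overlap those of each autosomal arm.

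Most list A-only peaks lay apart from shared peaks. The distance from each to the nearest shared peak of list A, edge to edge, had a median of 9186 bp (7094 to 11716) and ran from 101 to 467720 bp. Peaks within 1 kb are called flank peaks, those from 1 to 10 kb near peaks and those over 10 kb isolated peaks. Of the 871, 224 were flank peaks (25.7%, 22.8 to 28.8), 222 were near peaks (25.5%, 22.6 to 28.5) and 425 were isolated (48.8%, 45.4 to 52.2). With the peaks of each list within 500 bp merged, there were 636 list A-only peaks and the flank share was 10.4% (8.12 to 13.01). Merging leaves no gap of 500 bp or less within a list, so part of this fall was set in advance. Before merging, 150 of the 224 flank gaps were under 500 bp.

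Shared peaks stood closer to each other than list A-only peaks stood to them. The nearest other shared peak lay within 1 kb for 639 of the 1164 shared peaks (54.9%, 52.0 to 57.8), from 1 to 10 kb for 258 (22.2%, 19.8 to 24.7) and over 10 kb away for 267 (22.9%, 20.6 to 25.5), with a median of 812 bp (678 to 918). On each arm the isolated share was higher in list A-only than in shared peaks: 47.5% against 22.3% on 2L, 48.6% against 28.6% on 3L, and on 3R 163 of 326 against 93 of 476. On X, 105 of the 220 peaks without a counterpart were isolated (47.7%, 41.0 to 54.5), a share whose interval includes the autosomal one.

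**Figure D3:**
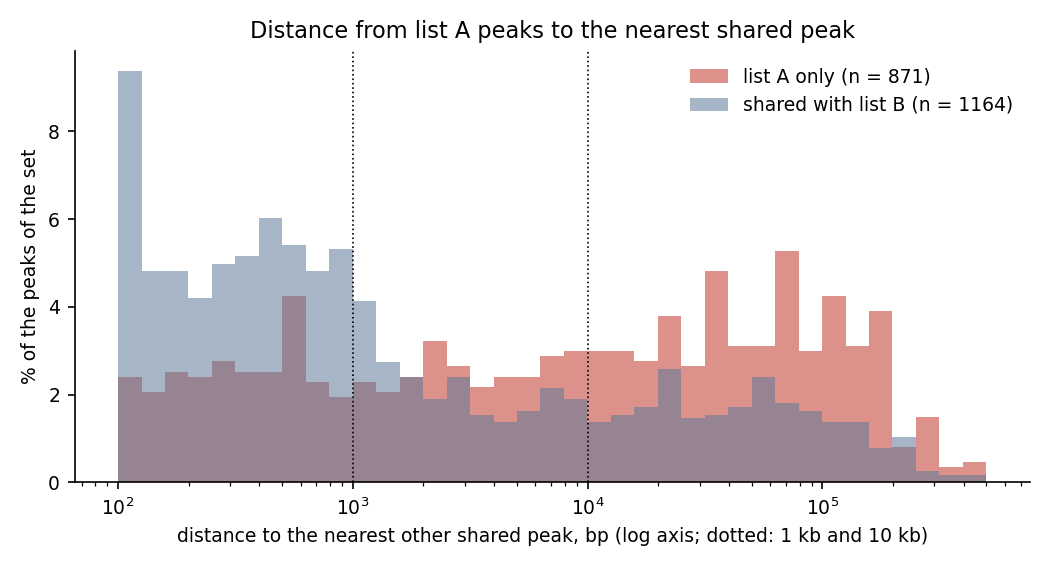
Share of list A-only peaks (red, 871) and of shared peaks (blue, 1164) by distance in bp to the nearest other shared peak of list A, on a log axis with 1 kb and 10 kb dotted. Shared peaks gather below 1 kb (54.9%), while 48.8% of list A-only peaks lie beyond 10 kb.

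The 5 most remote list A-only peaks lay on 3R, in long stretches with no shared peak. A pair at 21341245 to 21341462 (218 bp, summit −log10 p of 4.48) and 21343862 to 21344026 (165 bp, 3.75) was 465103 bp and 467720 bp from the nearest shared peak. A second pair at 14749080 to 14749220 (141 bp, 4.15) and 14749576 to 14749725 (150 bp, 3.68) was 441460 bp and 441956 bp away. The remaining peak ran from 21472882 to 21472988 (107 bp, 4.13), 357342 bp away. Their heights of 3.68 to 4.48 were low to moderate for list A-only peaks, and 4 of them stood within 2.4 kb of another list A-only peak.

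Isolated peaks were slightly taller than flank peaks and of like width. The median summit −log10 p was 4.26 (4.21 to 4.32) in isolated, 4.14 (4.09 to 4.23) in near and 4.09 (4.03 to 4.20) in flank list A-only peaks, and the first and last intervals do not overlap. Shared peaks had the same order at these ends, with 5.73 (5.60 to 5.90) in isolated and 5.39 (5.25 to 5.54) in flank ones. The median width of list A-only peaks was 170 bp (162 to 176), 178 bp (166 to 194) and 165.5 bp (156 to 181) in isolated, near and flank peaks. Among shared peaks the isolated ones were the narrowest, with 300 bp (285 to 319), against 335 bp (320 to 362) in near and 441 bp (408 to 474) in flank ones. The share of flank peaks was also nearly constant over the widths of list A-only peaks, from 24.7% (15.6 to 35.8) at 300 bp or more to 26.5% (20.7 to 33.0) at 200 to 299 bp.

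The 224 flank peaks had 200 different shared peaks as their nearest, and 38 of them had a shared peak within 1 kb on both sides. The neighbour was taller in all but 10 cases, by a median of 1.21 in −log10 p. Of all shared peaks in these regions, 8.76% were lower than the median list A-only peak. The part of this difference between the sets in the flank pairs was not tested. The summits of flank peak and neighbour lay a median of 665 bp apart (620 to 717), between 207 and 1587 bp, and 150 of the 224 pairs were at least 200 bp but under 800 bp apart. The gap between the edges was under 200 bp in 61 cases. Some flank peaks matched each other closely. On 3R, those from 6209767 to 6209853 and from 6213377 to 6213463 had the same width (87 bp), height (3.99042), strength (29.7703) and gap (263 bp). The peaks starting at 3651951 on 2L and at 3603461, 14463708 and 16679292 on 3L were each 258 bp wide. Their gaps were 550 to 563 bp. Outside the flank class, the near peaks starting at 6058769 and 8970020 on 3R were each 78 bp wide and 3252 bp from a shared peak. Whether such peaks are copies of the same sequence was not tested. The 5 flank peaks nearest to list B peaks, at 109 to 118 bp, included the 116 bp peak of 2L named among the tallest. The others were low to moderate peaks of 3L, from 609679 to 609796 (118 bp, 3.89), from 3095945 to 3096063 (119 bp, 4.78), from 3460285 to 3460384 (100 bp, 4.01) and from 20322112 to 20322362 (251 bp, 3.87).

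Shared peaks with a list A-only peak within 1 kb were not detectably taller or wider than the other shared peaks. Their median summit −log10 p was 5.499 (5.31 to 5.76) over 249 peaks, against 5.58 (5.45 to 5.69) over 915 without one, and their median width was 361 bp (325 to 401) against 362 bp (348 to 388). Each pair of intervals overlaps.

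List A-only peaks occurred singly more often than shared peaks did. Another list A-only peak lay within 5 kb for 385 of 871 (44.2%, 40.9 to 47.6), while another shared peak lay within 5 kb for 831 of 1164 shared peaks (71.4%, 68.7 to 74.0). With peaks within 500 bp merged these shares were 25.3% (22.0 to 28.9) and 55.3%, a fall in part set in advance, since merging removes the shortest gaps. The shared set has more peaks, and the part of this in the difference was not tested. With either kind of list A peak as neighbour the shares were 64.3% (61.0 to 67.5) and 82.8% (80.5 to 84.9). No list A peak of any kind lay within 10 kb of 237 list A-only peaks (27.2%, 24.3 to 30.3) and of 145 shared peaks (12.5%, 10.6 to 14.5).

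Joined over gaps of at most 5 kb, the list A-only peaks formed 650 groups, of which 486 were single peaks, 120 pairs and 36 triplets. A group of 4 or more was found 8 times. The shared peaks, by the same step, formed groups of up to 47. The 3 largest list A-only groups held 6, 6 and 5 peaks. The first spanned 5129 bp on 3R from 25627853 to 25632981, with no shared peak inside, widths of 91 to 521 bp and summit −log10 p of 3.81 to 4.496. The second spanned 11989 bp on 3L from 3448396 to 3460384, also with none inside, with widths of 94 to 286 bp and heights of 3.82 to 4.47. The group of 5 spanned 9547 bp on 2L from 491523 to 501069, was interleaved with 3 shared peaks, and had widths of 99 to 295 bp and heights of 3.86 to 4.05. None of these peaks was tall.

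In windows of 100 kb, list A-only peaks were present in 375 of the 466 windows that held any list A peak, and 154 windows had 1. In 129 windows, holding 226 list A-only peaks (25.9%), there was no shared peak. Windows with 5 or more numbered 41 and held 255 list A-only peaks (29.3%), whereas 92 windows had 5 or more shared peaks and held 712 of them (61.2%). The windows with the most list A-only peaks were on 3R from 25.6 to 25.7 Mb (14 beside 11 shared), on 3R from 25.5 to 25.6 Mb (12 beside 45 shared) and on 3L from 3.4 to 3.5 Mb (10 beside 9 shared).

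The first 2 of these windows adjoin, and the stretch was crowded in shared peaks too. The largest group of shared peaks anywhere in these regions, 47 peaks over 82.0 kb, ran on 3R from 25537079 to 25619049 and enclosed 11 list A-only peaks. Of the 15 list B peaks without a list A counterpart, 5 lay between 25.5 and 25.7 Mb. Beyond the end of that group came a stretch where every list A peak was list A-only, with a list B peak 420 bp from the first. A run of 10 list A-only peaks with no shared peak between them covered 19.7 kb from 25621721 to 25641462, with a median width of 275.5 bp and a median summit −log10 p of 4.04. Within it the tallest was a 297 bp peak from 25638813 to 25639109, with 4.59, and the lowest a 284 bp peak from 25630853 to 25631136, with 3.81.

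**Figure D4:**
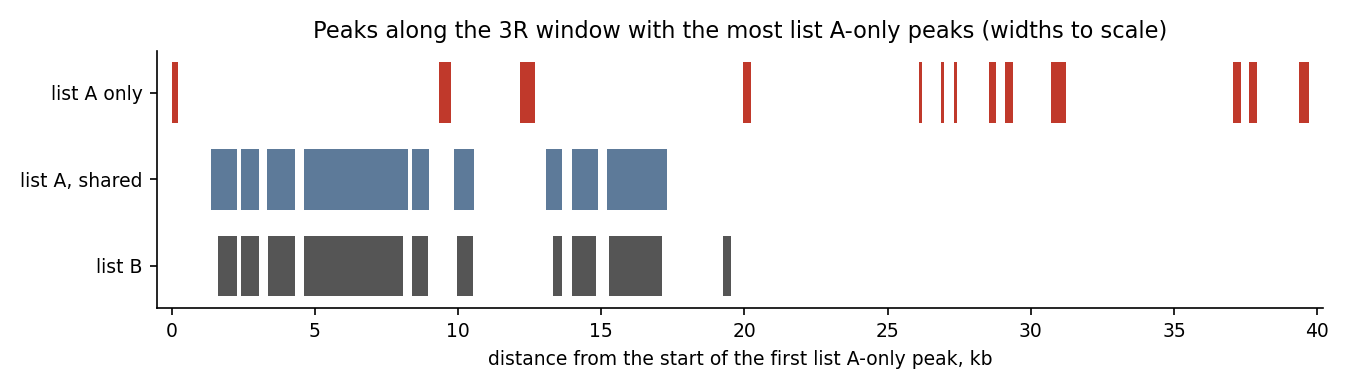
Positions of list A-only peaks (red), shared list A peaks (blue) and list B peaks (grey) over 39.7 kb of the 3R window with the most list A-only peaks, as distance in kb from the start of the first; widths are to scale. The 9 shared peaks and the 10 list B peaks lie in the left part, and the last 10 of the 13 list A-only peaks follow to the right of the shared peaks.

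List A-only peaks were also counted in runs, in which no shared peak lies between neighbours. The 871 peaks fell into 409 such runs, of which 206 were single peaks and 37 held 5 or more (239 peaks, 27.4%). The longest held 14 peaks over 489 kb of 3L, from 21233271 to 21721814. Its widths ran from 82 to 352 bp with a median of 137 bp, and its summit −log10 p from 3.87 to 4.89 with a median of 4.27. The tallest of the run were a pair 116 bp apart, from 21339921 to 21340073 (4.89) and from 21340190 to 21340378 (4.65). Runs of 11 lay on 3R from 17867835 to 18313190, with a median height of 4.18, and from 19857494 to 20099044, with a median height of 3.91 and a median width of 100 bp.

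Over bins of 1 Mb the number of list A-only peaks ran from 2 to 41 with a median of 10.5 over 70 bins, the highest being on 3R from 25 to 26 Mb. The share of list A peaks without a counterpart there was 41 of 119 (34.5%, 26.0 to 43.7), below the 42.8% of all bins together, although its interval includes that value. Among the 49 bins with 20 or more list A peaks the share ran from 4 of 22 on 3R from 15 to 16 Mb (18.2%, 5.19 to 40.3) to 19 of 27 on 3L from 21 to 22 Mb (70.4%, 49.8 to 86.2), the bin that holds the run of 14. List A-only peaks outnumbered shared ones in 25 of the 70 bins. These extremes were picked from 49 bins, and whether bins differ beyond counting error was not tested.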

How the data were processed

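Per the submitters' processing notes, reads were handled with Bowtie2 and the peak caller Genrich 0.5 on build dm3. Options, read filters and any pooling of libraries: not given in the sources used here. Both lists deposited by the authors follow the narrowPeak column order, with no header. Summit p-values and q-values are deposited as −log10. From its place in that order, the deposited signal was taken as an area of significance (peak strength), and the deposited score equalled 1000 times strength per base, capped at 1000, within rounding. The start, end and summit offset, the other deposited columns, are whole numbers of bp. Height and strength depend on the depth behind a list, which is unknown, so they were compared within list A alone.

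Overlaps, gaps, groups and medians were computed in Python 3.11.15 (pandas 2.3.3, numpy 2.4.6, scipy 1.17.1) and drawn with matplotlib 3.10.9. Coordinates are 1-based. Intervals at 95% are Clopper-Pearson for shares and, for medians, the binomial interval of the order statistics. As a check of the code alone, a simulated list B was made from list A. Of its 2035 peaks in these regions 200 were taken out, and the remaining peaks were shifted by a few bp. All 200 were recovered as list A-only, an outcome that this construction fixed in advance. The peaks named are the 10 tallest, the 5 widest, the 5 farthest from a shared peak, the 5 closest to list B, and the 3 largest groups and windows; runs, bins, the edge peaks and the shared group of 47 were added after their values were seen. The members and limits were chosen with earlier results of these data known. The planned results on sequence and genes were not run, as no dm3 genome or annotation was used here.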

Additional observations from a re-analysis of the deposited data

How the results depend on the processing

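Without the 2 densest windows (chosen, like the isolated peaks, after seeing the data), and with edges moved 1 Mb, all 5 results stayed within their intervals. Over all 12 settings, 16 of 33 values did so and 17 moved. The share without a counterpart was 48.2% with a reciprocal overlap of 50%. It was 28.7% when the whole of list A was cut to its 4027 strongest peaks, which did not equalise the lists within these regions. Median summit −log10 p was 4.26 with the reciprocal overlap, 4.65 with −log10 q of at least 2 (shared 6.07) and 4.26 in isolated peaks. Median width was 180 bp with the reciprocal overlap, 206 bp with the q limit (shared 439) and, with peaks within 500 bp merged, 182 bp (shared 460). The flank share was 21.0% with the q limit, 10.4% merged (shared 29.3%), 17.2% within 500 bp and 32.6% within 2 kb (shared 39.3% and 64.3%). The share with another list A-only peak in reach was 49.5% with the reciprocal overlap, 39.1% with the q limit and 25.3% merged (shared 55.3%), and 32.3% and 56.0% for gaps of 2 and 10 kb. Merging leaves no gap of 500 bp or less, so part of the fall in this share and in the flank share was set in advance. In each setting that gave both values, list A-only peaks were lower, narrower, less often in a flank and less often grouped than shared ones. Read depth per list is unknown. No paired analysis was possible because both lists are attached to all 4 libraries; for that reason no replicate could be left out either.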
